A study of Mus musculus with 9 samples.

Results

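Transcripts of 33 genes of the peroxisome were followed in newborn mouse intestinal epithelial cells, 12 Pex genes and 21 genes of peroxisomal enzymes and transporters, out of 18193 genes measured. They were chosen by symbol, with earlier results of these data known. Their counts beside the share of all genes are therefore a description. Of the probe sets that carried a gene's symbol alone, the brightest over all 9 arrays represented it, and all 33 genes had one. The arrays hold RNA of pups killed at postnatal day 0, with 3 arrays for each of 3 genotypes. Rescue pups were Tfr1 IEC-KO;ROSA26 Tfr1R654A/+, so they carried the intestinal epithelial knockout and an added Tfr1 allele at the ROSA26 locus. Knockout pups were Tfr1 IEC-KO, and control pups were Tfr1fl/fl, with floxed alleles. No group received a treatment. Tfr1, encoded by Tfrc, takes transferrin-bound iron into cells, and the R654A change strongly weakens its binding of transferrin. Cells were shaken off pieces of small intestine and proximal colon after 30 min in 2 mM EDTA and passed a 70 µm mesh, with no sort named. The sources name neither the Cre line nor the sex of the pups nor how many pups an array holds, so p-values measure only the spread between these arrays.

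Peroxisomes are single-membrane organelles that shorten very long and branched fatty acids, make ether lipids and bile acids, and produce hydrogen peroxide, which catalase destroys in place. Their enzymes are made in the cytosol and carried in folded by the peroxins, the products of the Pex genes: receptors bind a targeting signal on the cargo, dock at the membrane, release the cargo inside and are pulled back out for reuse. In newborn intestine the organelle is part of the equipment of enterocytes that absorb milk fat.

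Some measurements over the whole arrays touch every result below. Tfrc was read by 6 probe sets. The brightest lay between 10.22 and 11.11 (log2) in rescue arrays, 9.07 and 11.16 in knockout arrays and 9.88 and 10.78 in control arrays. In the other 5 all rescue arrays lay far above the rest, and, with the exons they read not analysed here, the 6 check neither the deletion nor the added change. Rescue arrays differed from the other genotypes in sex transcripts: Xist read 6.45 to 6.83 in rescue, 12.02 to 12.75 in knockout and 12.10 to 12.31 in control, and the Y-linked Eif2s3y read 9.36 to 9.70 in rescue, 2.34 to 2.82 in knockout and 2.69 to 2.88 in control. Genotype and sex of the rescue arrays cannot be told apart. The mean log2 level of 15 fibroblast markers, out of 16 listed, spanned 7.48 to 7.98 in rescue, 7.30 to 10.46 in knockout and 6.72 to 7.26 in control arrays. That of 19 enterocyte markers, out of 20 listed, spanned 11.84 to 11.86 in rescue, 11.66 to 12.09 in knockout and 11.81 to 11.87 in control arrays, so the labelled cell type was there in every array. Single enterocyte markers went both ways, which this mean does not show. Between knockout and control 3 were called higher and 3 lower, with changes from -1.54 to 2.14. In bulk RNA, fewer cells of a type and less RNA per cell cannot be told apart.

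Many peroxisome transcripts, of Pex genes and enzymes alike, were lower in knockout cells than in control cells. Of the 12 Pex genes 9 fell and 0 rose past an adjusted p of 0.05 in limma, and of the 21 enzymes and transporters 7 fell and 0 rose. Among all 18193 genes 8.77% were called lower and 5.29% higher. The median change was -0.70 (log2) over the Pex genes and -0.68 over the enzymes, against -0.04 over all genes. Every knockout array lay below every control array for 9 Pex genes and 11 enzymes, a pattern found in 19.7% of all genes. The fitted changes of the Pex genes ran between -1.06 and -0.05, all below 0, and those of the enzymes between -2.96 and 0.37, with 17 of 21 below 0.

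**Figure D1:**
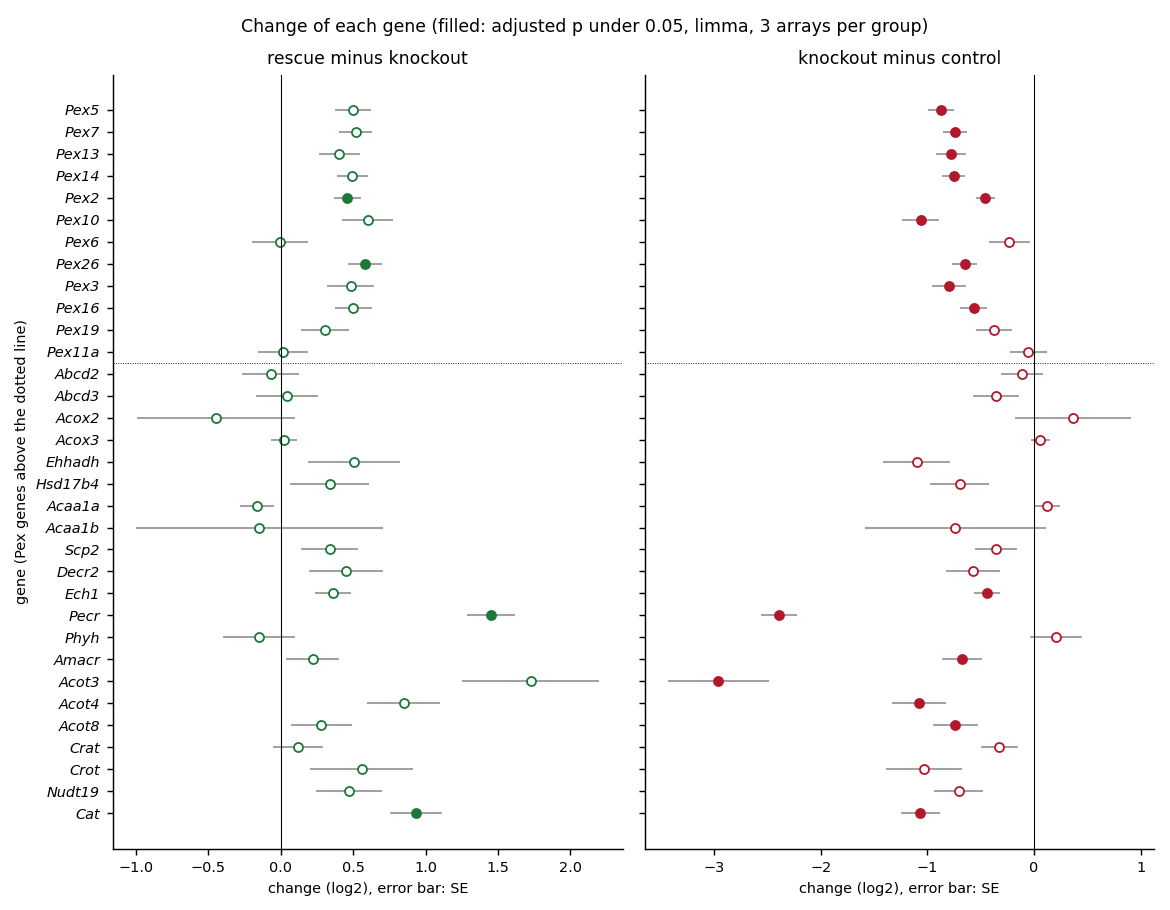
Change of each of the 33 genes on the log2 scale (x axis) between rescue and knockout (left) and between knockout and control (right), with the standard error as a bar. Filled points passed an adjusted p of 0.05 in limma. In the right panel 16 genes are filled, all left of 0, with Acot3 and Pecr farthest out. In the left panel 4 are filled, all right of 0.

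The import receptors were among the Pex genes with the firmest change. Pex5 encodes the receptor of the most common targeting signal, a C-terminal tripeptide, and Pex7 the receptor of the N-terminal signal. Pex5 read 8.63, 8.91 and 8.84 (log2) in rescue replicates 1, 2 and 3, 8.11, 8.30 and 8.47 in knockout and 9.27, 9.08 and 9.16 in control. Its 3 groups formed separate bands, with rescue in the middle. It averaged 8.30 ± 0.18 in knockout cells and 9.17 ± 0.10 in control cells (SD, n = 3 each), a change of -0.87 ± 0.12 (SE, 1.83-fold lower, limma adjusted p = 0.0039). Pex7 read 9.86, 9.84 and 9.84 in rescue, 9.38, 9.24 and 9.37 in knockout and 9.85, 10.14 and 10.24 in control arrays. All knockout arrays were below all others, and rescue arrays met the lowest control array. Its change between knockout and control was -0.74 ± 0.11 (1.67-fold lower, limma adjusted p = 0.0054).

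The docking partners moved by a like amount. Pex14 and Pex13 form the membrane complex on which a loaded receptor lands. Pex14 read 8.66, 8.81 and 8.66 in rescue, 8.07, 8.17 and 8.39 in knockout and 9.03, 8.94 and 8.92 in control arrays. As for Pex5, the groups did not overlap and rescue lay between. Its change was -0.75 ± 0.11 between knockout and control (limma adjusted p = 0.0041). Pex13 read 9.86, 10.11 and 10.08 in rescue, 9.37, 9.64 and 9.83 in knockout and 10.23, 10.46 and 10.49 in control arrays. Its bands were also separate, although knockout replicate 3 came within a small distance of rescue replicate 1. The change was -0.78 ± 0.14 (limma adjusted p = 0.0096), and a second, dimmer probe set gave -1.03.

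Pex2 and Pex10 encode RING-finger subunits of the ubiquitin ligase that marks used receptors for recycling. Pex10 read 7.29, 7.45 and 7.88 in rescue, 6.80, 7.10 and 6.92 in knockout and 7.86, 7.91 and 8.24 in control arrays. Knockout was lowest throughout, and the brightest rescue array reached the dimmest control array. With -1.06 ± 0.17 (2.09-fold lower, limma adjusted p = 0.0066) it had the largest fall of the 12. Pex2 read 10.24, 10.23 and 10.06 in rescue, 9.69, 9.71 and 9.75 in knockout and 10.10, 10.26 and 10.15 in control arrays. Rescue and control arrays were mixed together, with the knockout arrays close to each other beneath them. The change was -0.46 ± 0.09 (limma adjusted p = 0.015), but a second probe set gave 0.03, and the mean of both gave -0.21 and did not pass.

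Pex6 is an ATPase of the motor that pulls receptors out of the membrane, and Pex26 holds that motor there. Pex26 read 8.63, 8.39 and 8.41 in rescue, 7.78, 7.84 and 8.08 in knockout and 8.47, 8.60 and 8.58 in control arrays. Rescue and control overlapped and knockout lay apart below them. Its change between knockout and control was -0.65 ± 0.12 (limma adjusted p = 0.0091). Pex6 did not pass, at -0.23 (95% interval -0.67 to 0.21), and its arrays overlapped across all groups, with 8.96 to 9.60 in rescue, 8.99 to 9.50 in knockout and 9.44 to 9.71 in control.

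Pex3, Pex16 and Pex19 place proteins in the peroxisomal membrane: Pex19 is the cytosolic chaperone, Pex3 its docking site and Pex16 an anchor for Pex3. Pex3 read 8.53, 8.51 and 8.59 in rescue, 8.17, 8.17 and 7.84 in knockout and 8.52, 8.94 and 9.11 in control arrays. The rescue arrays lay close together at the lower edge of the control arrays, and knockout replicate 3 was the lowest of all. The change was -0.80 ± 0.16 (limma adjusted p = 0.015), and a second, dimmer probe set gave -1.16. Pex16 read 9.83, 9.64 and 9.63 in rescue, 9.21, 8.98 and 9.39 in knockout and 9.65, 9.76 and 9.87 in control arrays. Rescue and control could not be separated, and all knockout arrays were lower. Its change was -0.57 ± 0.13 (limma adjusted p = 0.022), while a dimmer probe set gave -0.01 and their mean did not pass. Pex19 read 10.19, 10.52 and 10.31 in rescue, 9.68, 10.09 and 10.33 in knockout and 10.31, 10.43 and 10.49 in control arrays. Knockout replicate 3 was as high as the dimmest control array, and the change did not pass (-0.38, 95% interval -0.76 to 0.01, limma adjusted p = 0.17).

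Pex11a, which takes part in elongation and division of the organelle, showed no difference past the threshold: it read 8.55 to 8.91 in rescue, 8.33 to 9.03 in knockout and 8.69 to 8.80 in control, and the interval of its change between knockout and control was -0.45 to 0.35. Of 5 genes listed for division and upkeep of the organelle, among them the dynamin Dnm1l, 0 passed in limma between knockout and control, and 2 had an unadjusted p under 0.05. Of 5 further peroxin genes listed, 2 were measured, Pex11g and Pex5l, and neither passed (limma adjusted p of 0.11 for the smaller).

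**Figure D2:**
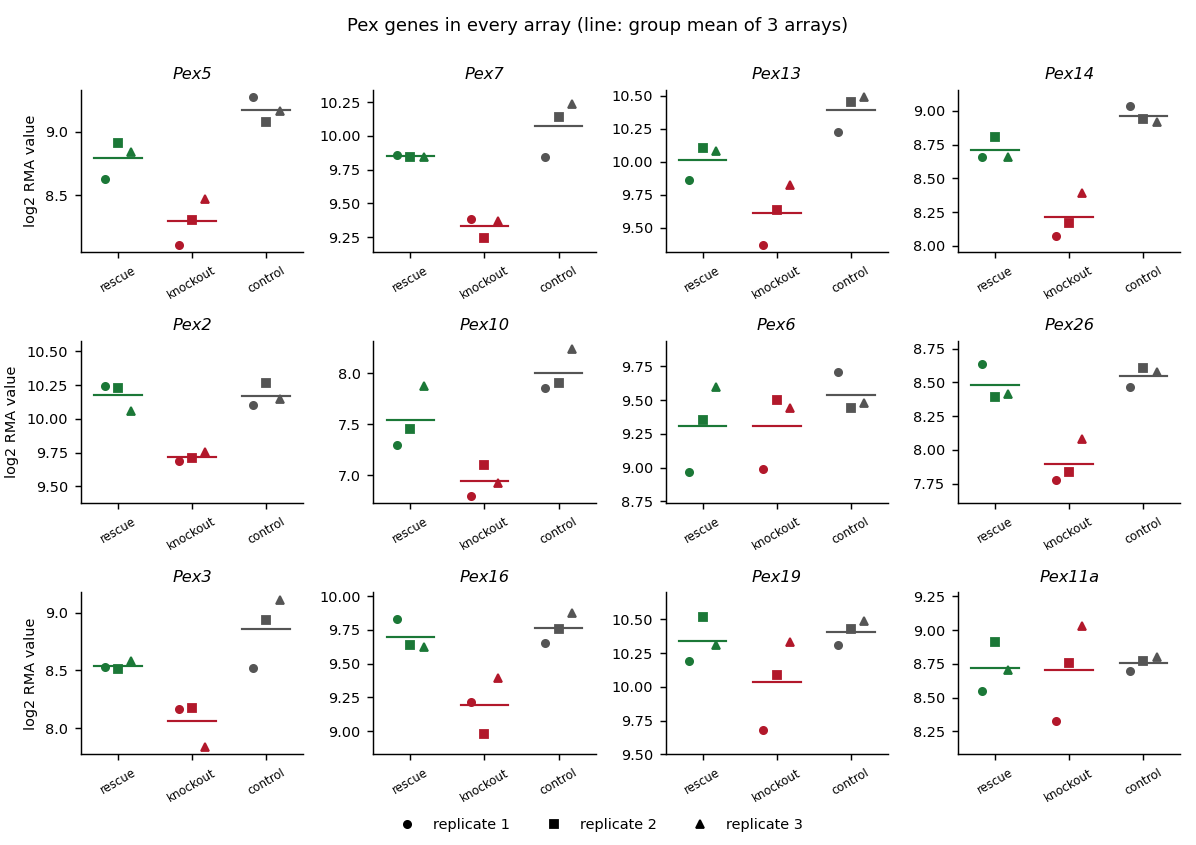
Level of each of the 12 Pex genes (y axis, log2 RMA value, with a scale of its own per gene) in the 3 rescue, 3 knockout and 3 control arrays, with the group mean as a line. For 9 genes all knockout points lie below all control points. Pex6, Pex19 and Pex11a are the exceptions.

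Among the enzymes, no member of the fatty acid spiral itself passed, while several that prepare its substrates or split its products did. This is a count of calls, and the classes were not tested against each other. Ehhadh of the spiral, at -1.10, fell by more than Acot8 (-0.74), Amacr (-0.68) and Ech1 (-0.44), which passed. The transporters Abcd2 and Abcd3 bring fatty acids in as CoA esters. Abcd3, a major protein of the peroxisomal membrane, read 10.78, 11.24 and 11.40 in rescue, 10.67, 11.41 and 11.22 in knockout and 11.40, 11.56 and 11.41 in control arrays. The knockout arrays overlapped both other groups, and the change between knockout and control was -0.36 (95% interval -0.85 to 0.13, limma adjusted p = 0.31). Abcd2 was dim in every array, at 4.90 or less, and did not pass.

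Of 7 genes of the spiral 0 passed between knockout and control in limma, and 2 had an unadjusted p under 0.05. Among all genes 8.77% were called lower and 5.29% higher, so 0 calls among 7 genes is no departure from that share. Ehhadh, the bifunctional enzyme for straight chains, read 10.02, 10.07 and 10.42 in rescue, 9.21, 9.29 and 10.50 in knockout and 10.53, 10.84 and 10.92 in control arrays. Knockout replicates 1 and 2 lay far below control, while replicate 3 nearly met it. Its change of -1.10 ± 0.32 missed the threshold (limma adjusted p = 0.052). Hsd17b4, the bifunctional enzyme for branched chains and bile acid precursors, read 9.76, 10.25 and 10.42 in rescue, 9.23, 9.84 and 10.34 in knockout and 10.34, 10.61 and 10.55 in control arrays. Again replicate 3 was the highest knockout array and touched the control range (change -0.70 ± 0.28, limma adjusted p = 0.13). Scp2, whose longer product is the thiolase for branched chains, read 12.50, 12.63 and 12.76 in rescue, 11.98, 12.12 and 12.77 in knockout and 12.48, 12.73 and 12.74 in control arrays. There knockout replicate 3 stood above all control arrays (change -0.36 ± 0.20, limma adjusted p = 0.26).

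The oxidases and the other thiolases of the spiral showed the same order of the knockout arrays or little difference at all. Acox2, the oxidase of branched chains and bile acid precursors, ranged in knockout cells from 6.72 in replicate 1 over 7.42 in replicate 2 to 9.11 in replicate 3, and in control cells from 7.08 to 7.68. Its interval was wide, from -0.88 to 1.61. Acaa1b, a thiolase, spread even more, with 6.88, 9.34 and 10.23 in rescue, 7.75, 8.85 and 10.29 in knockout and 9.59, 9.79 and 9.72 in control arrays. For Acox3 the change of 0.06 had an interval of -0.14 to 0.26, while its dimmer probe set gave -0.47. For Acaa1a, the paralog of Acaa1b, the change was 0.12 (interval -0.15 to 0.39). Its probe set, like those of Crat and Pex6, is of a kind that may bind other transcripts too.

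Enzymes that handle double bonds had the clearest single result. Pecr reduces trans-2-enoyl-CoA and acts in fatty acid elongation and in the breakdown of phytol. It read 9.27, 9.48 and 9.38 in rescue, 8.08, 7.55 and 8.14 in knockout and 10.21, 10.23 and 10.51 in control arrays. The 3 groups were wide apart with no array out of place. It averaged 7.92 ± 0.33 in knockout cells and 10.32 ± 0.16 in control cells (SD, n = 3 each), a change of -2.39 ± 0.17 (5.25-fold lower, limma adjusted p = 3.1e-04), and a dimmer probe set gave -1.50. Ech1, an isomerase that shifts double bonds, read 10.91, 10.91 and 11.13 in rescue, 10.50, 10.57 and 10.79 in knockout and 10.92, 11.19 and 11.06 in control arrays. Rescue and control were mixed, and knockout lay below both by a small step (-0.44 ± 0.12, limma adjusted p = 0.048). Decr2, a reductase of unsaturated chains, ran from 8.25 to 8.69 in rescue, 7.43 to 8.52 in knockout and 8.54 to 8.76 in control. Its knockout and control arrays did not overlap, but the change of -0.58 (interval -1.15 to 0.00) did not pass.

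Phyh and Amacr prepare branched chains. Amacr, a racemase, read 5.84, 6.34 and 6.36 in rescue, 5.62, 6.13 and 6.12 in knockout and 6.60, 6.57 and 6.74 in control arrays. The control arrays lay above both other genotypes, and rescue and knockout overlapped. Its knockout mean was among the dimmest 40% of levels, which makes the change of -0.68 ± 0.18 one of at least 1.60-fold (limma adjusted p = 0.044). Phyh, the iron-dependent hydroxylase of phytanoyl-CoA, was at 10.60, 10.26 and 11.39 in the knockout arrays, while the control arrays ran from 10.52 to 10.58, and did not pass (0.21, interval -0.36 to 0.77).

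All 3 thioesterases among the members, which split CoA from finished chains, fell in knockout cells. Acot3 read 8.62, 9.23 and 9.58 in rescue, 6.35, 7.47 and 8.44 in knockout and 10.11, 10.38 and 10.65 in control arrays. The order control, rescue, knockout held without overlap, although the knockout arrays differed by more than 2 units among themselves. With -2.96 ± 0.47 (7.79-fold lower, limma adjusted p = 0.0061) it was the largest change of the 33, and its single probe set is of a kind that may also bind related transcripts. Acot4, its neighbour on chromosome 12, read 8.34, 8.88 and 8.44 in rescue, 7.29, 7.65 and 8.17 in knockout and 8.42, 8.98 and 8.94 in control arrays. Rescue and control overlapped, and knockout lay below (-1.08 ± 0.25, limma adjusted p = 0.026), with -1.09 from its other probe set. Acot8, which accepts many chain lengths, read 8.73, 9.16 and 9.24 in rescue, 8.35, 8.76 and 9.17 in knockout and 9.44, 9.56 and 9.49 in control arrays. Rescue and knockout overlapped beneath the control arrays, and the change passed narrowly (-0.74 ± 0.21, limma adjusted p = 0.0499).

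The carnitine transferases, which send shortened chains on to mitochondria, did not pass. Crot, specific for medium chains, ran from 10.22 to 11.15 in rescue, 9.44 to 10.82 in knockout and 11.04 to 11.45 in control. Knockout and control did not overlap, but the knockout arrays were spread (-1.04 ± 0.36, limma adjusted p = 0.089). Crat, for short chains, changed by -0.32 (interval -0.72 to 0.07). Nudt19, a hydrolase of CoA and its esters, ran from 9.75 to 10.36 in rescue, 9.26 to 10.10 in knockout and 10.23 to 10.46 in control, and its change of -0.71 ± 0.23 did not pass (limma adjusted p = 0.073).

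Catalase (Cat), a haem enzyme and the marker enzyme of the organelle, fell. It read 11.74, 11.97 and 11.89 in rescue, 10.78, 10.66 and 11.37 in knockout and 11.99, 11.90 and 12.12 in control arrays. Rescue overlapped control, and all knockout arrays lay below them, replicate 3 the least. Its change between knockout and control was -1.07 ± 0.18 (2.09-fold lower, limma adjusted p = 0.0073). Its other probe set gave -0.93.

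**Figure D3:**
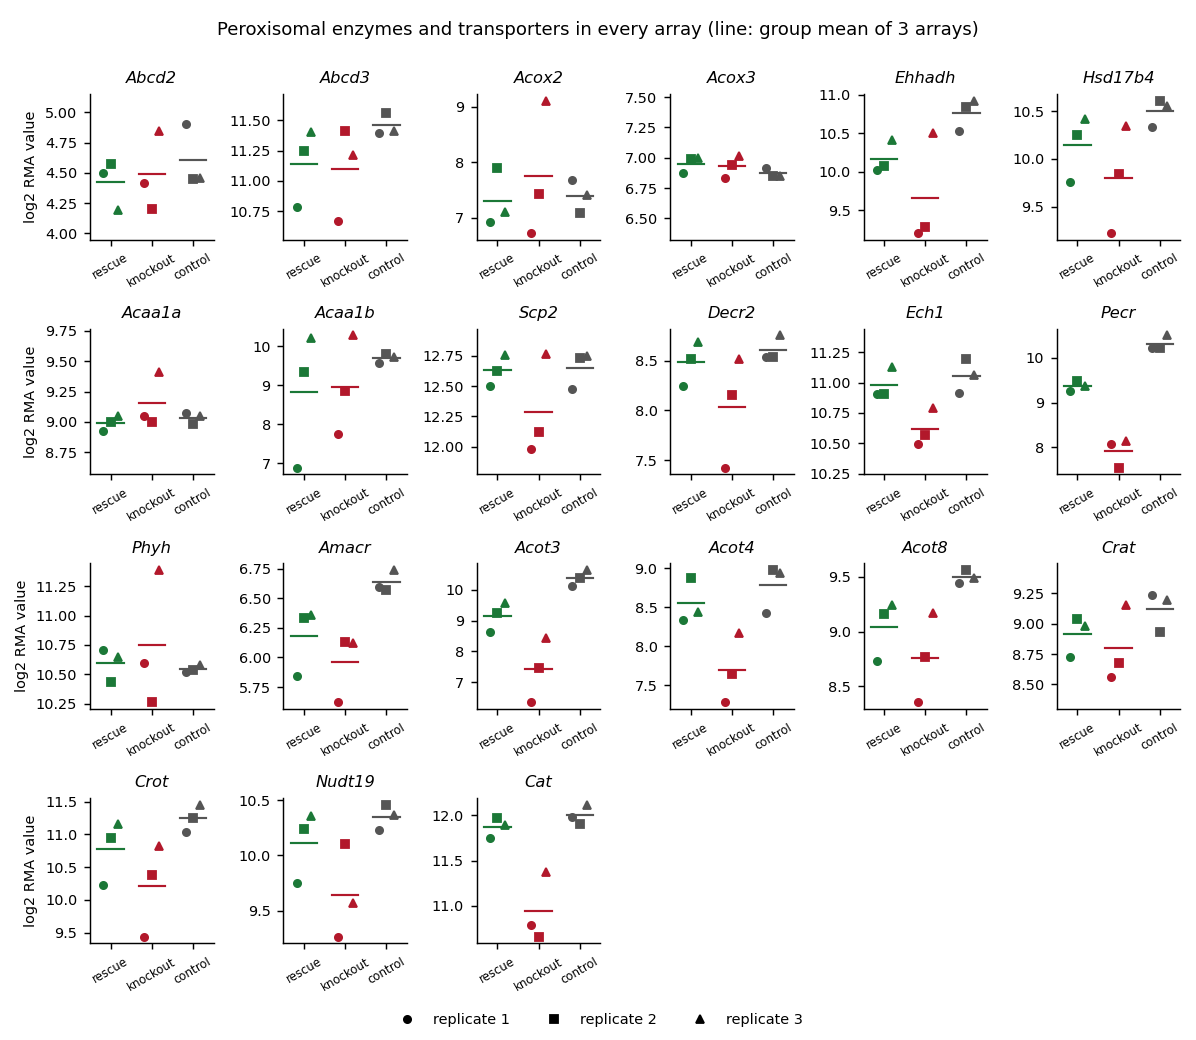
Level of each of the 21 enzymes and transporters (y axis, log2 RMA value, with a scale of its own per gene) in the 3 rescue, 3 knockout and 3 control arrays, with the group mean as a line. Knockout replicate 3 (red triangle) is the highest knockout array in 18 of the 21 panels. Pecr, Acot3 and Cat have all knockout points well below control.

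The promoters of Cat, Acot4, Pecr and Pex14 are shown because these genes fell in knockout cells and stand for an antioxidant, a thioesterase, a reductase and a docking factor. Each is the 250 bases before the annotated start in RefSeq, build GRCm38.p6, 5′ to 3′ on the gene's strand. Cat lies on the minus strand at chr2:103485154-103485403, Acot4 on the plus strand at chr12:84038129-84038378, Pecr on the minus strand at chr1:72284322-72284571 and Pex14 on the minus strand at chr4:149099844-149100093. Capitals mark matches on either strand to 3 motifs: AGGTCA, the half-site of nuclear receptors, the CCAAT box (CCAAT) and the GC box (GGGCGG). A match on the other strand shows as its reverse complement, and no matches overlap in these sequences.
Cat: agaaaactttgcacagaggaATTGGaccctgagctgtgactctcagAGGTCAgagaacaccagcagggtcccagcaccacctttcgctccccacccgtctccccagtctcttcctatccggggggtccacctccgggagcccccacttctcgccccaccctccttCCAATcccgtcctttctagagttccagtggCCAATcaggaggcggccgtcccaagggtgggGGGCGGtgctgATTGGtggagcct
Acot4: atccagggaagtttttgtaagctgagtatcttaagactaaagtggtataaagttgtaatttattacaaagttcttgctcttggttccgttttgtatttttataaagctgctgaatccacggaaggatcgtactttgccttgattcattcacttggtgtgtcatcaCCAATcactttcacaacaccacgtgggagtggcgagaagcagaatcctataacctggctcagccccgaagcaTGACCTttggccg
Pecr: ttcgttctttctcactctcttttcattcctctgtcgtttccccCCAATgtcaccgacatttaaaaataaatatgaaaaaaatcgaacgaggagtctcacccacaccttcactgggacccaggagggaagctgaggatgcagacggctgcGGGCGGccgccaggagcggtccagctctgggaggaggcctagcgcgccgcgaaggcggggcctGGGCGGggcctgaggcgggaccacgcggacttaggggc
Pex14: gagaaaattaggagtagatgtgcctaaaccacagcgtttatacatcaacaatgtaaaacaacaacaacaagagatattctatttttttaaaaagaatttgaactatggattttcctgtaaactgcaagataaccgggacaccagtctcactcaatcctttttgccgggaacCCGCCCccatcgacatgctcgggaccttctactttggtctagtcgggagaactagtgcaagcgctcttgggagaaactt

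Promoters of 27 of the 33 genes were in the table, 13 promoters for Pex genes and 20 for enzymes. The half-site AGGTCA was in 0 of the 13 and 3 of the 20, those of Acot4, Cat and Scp2, against 14% of 32851 promoters of all genes. Among the 18 promoters of members called lower in knockout cells it was in 2 (11.1%), those of Acot4 and Cat. Both are among the promoters shown, so those 4 hold it more often than the fallen members do. The pair of half-sites with 1 base between them, AGGTCANAGGTCA, on which PPAR receptors bind with RXR, was in 0 of these 33 promoters, against 0.0335% of all. A sequence found in only 11 of 32851 promoters would be missing from almost any 33, so this 0 says nothing about PPAR binding. CCAAT was in 4 of 13 and 11 of 20, against 33.8%, with 4 matches in Cat alone. GGGCGG was in 7 of 13 and 10 of 20, against 32.7%. These are matches of letters in a short window.

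Of 42 measured genes of the organelle outside the 33, out of 47 listed, 12 fell, 1 rose and 29 did not pass in knockout against control cells, where 8.77% of all genes were called lower and 5.29% higher. The median change of the 42 was -0.51, with 34 below 0 and 8 above. The smallest p-values came from oxidases that make hydrogen peroxide from other substrates. Dao, the D-amino acid oxidase, ran from 6.78 to 7.18 in knockout and 8.57 to 8.71 in control arrays (-1.68 ± 0.12, limma adjusted p = 3.1e-04). Pipox, the oxidase of pipecolic acid and sarcosine, read 8.55, 8.43 and 8.35 in knockout and 10.01, 9.91 and 10.15 in control arrays (-1.58 ± 0.12, limma adjusted p = 3.2e-04). For both, the knockout arrays kept close to each other and more than 1 unit from control. Hao2, an oxidase of hydroxy acids, fell by 1.66 (limma adjusted p = 0.0055), and Abcd4, a transporter known for its work on lysosomal vitamin B12, fell by 1.41 (limma adjusted p = 0.0068). The gene that rose was Agps, which makes the ether bond of plasmalogens (0.70 ± 0.14, limma adjusted p = 0.013), named after its value was seen. With the fibroblast mean as a covariate, in a fit that leans on knockout replicate 3, Dao, Pipox and Hao2 were still called. Abcd4 and Agps were not.

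Many listed genes of mitochondrial beta-oxidation, the sister pathway, were lower too. Of 14 genes 8 fell and 0 rose, with a median of -0.60, where 8.77% of all genes were called lower. Among the 8 were Eci1 (-1.27, limma adjusted p = 0.0061), Acads (-0.78, 0.0063), Hadh (-0.47, 0.012) and Decr1 (-1.08, 0.013). None of these 4 was called with the fibroblast covariate, in the fit that leans on knockout replicate 3. Of 19 measured genes on the list of PPAR receptors and their targets, 0 fell and 1 rose: Vnn1, the pantetheinase, read 11.41, 10.79 and 12.11 in knockout and 8.83, 8.96 and 9.39 in control arrays (2.38 ± 0.32, limma adjusted p = 0.0031). That list also held Acadm, Acadl, Hadha and Cpt1a of mitochondrial beta-oxidation, none of them called. Acadm read 12.03, 11.96 and 12.68 in knockout, above all control arrays at 11.42, 11.72 and 11.56. For Acadl and Hadha all knockout arrays lay below all control arrays, and for Cpt1a the groups overlapped. Ppara, the receptor known to drive peroxisome genes in rodents, read 7.14, 7.27 and 7.78 in knockout and 7.99, 8.11 and 8.21 in control arrays. These did not overlap, but the change of -0.71 did not pass (limma adjusted p = 0.18).

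The knockout arrays were not alike, and the enzymes followed this more than the Pex genes. Set against the control mean, the median Pex gene lay at -0.71, -0.73 and -0.52 in knockout replicates 1, 2 and 3, and the median enzyme at -1.09, -0.50 and -0.24. The median SD among knockout arrays was 0.19 for Pex genes, 0.42 for enzymes and 0.23 for all genes. Fibroblast markers had medians of 3.68, 2.93 and 0.22 in the same arrays, and smooth muscle markers 3.28, 1.69 and 0.15, so the array with the least of them had the highest enzyme levels. Replicate 3 was the highest knockout array for 8 of 12 Pex genes, 18 of 21 enzymes and 47.2% of all genes. The part of such cells in the falls was not tested. The 2 settings that follow are close to 1 setting, because fibroblast markers were far higher in knockout replicates 1 and 2 than in any other array. With the fibroblast mean as a covariate the fit therefore leans on replicate 3 too.

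Knockout replicate 3 had fibroblast markers between those of rescue and control, but some markers of other tissues were higher in it than in control arrays. For 5 mesothelium markers its median stood at 0.93, with 1.11 for replicate 1 and 2.11 for replicate 2, while controls spanned -0.20 to 0.23, and 3 of the 5 were called higher in knockout cells. These markers disagreed in replicate 3. Msln, Lrrn4 and Krt19 lay above all control arrays, Krt19 from a control level of 10.10 to 11.09. Wt1, at 4.98, lay within the control range of 4.75 to 5.26, and Upk3b, at 6.92, lay below its control range of 7.87 to 8.26. For 7 pancreas markers it stood at 0.49, with 0.12 for replicate 1 and 2.17 for replicate 2, while controls spanned -0.07 to 0.18. Of those 7 genes 0 were called in limma and 0 had an unadjusted p under 0.05. The part of these tissues in the members' changes was not tested. When replicate 3 alone stood for the knockout, the median change from control was -0.52 over the 12 Pex genes and -0.24 over the enzymes. The 5 largest falls among the Pex genes were those of Pex3, Pex5, Pex7, Pex10 and Pex14, at -0.57 to -1.08. Among enzymes Pecr (-2.17), Acot3 (-1.94), Nudt19 (-0.78) and Cat (-0.63) fell most, while Acox2 (1.73) and Phyh (0.85) rose most. That lone array is assumed to vary like the other groups. With the fibroblast mean as a covariate those 5 Pex genes were called lower, with a median over the 12 of -0.51. Pecr, Acot3 and Cat were called lower too, and Acox2 higher (1.98). Among all 18193 genes 1188 were called lower and 813 higher in that fit. The median enzyme then lay at -0.10. With the covariate Pex2, Pex13, Pex16 and Pex26, and Ech1, Amacr, Acot4 and Acot8, were not called. Their changes were still below 0 under both settings. With replicate 3 alone and with the covariate, Pex2 stood at -0.42 and -0.44, Pex13 at -0.56 and -0.53, Pex26 at -0.47 and -0.49 and Pex16 at -0.37 and -0.43. Pex2 thus stayed near its -0.46 from all arrays, while the others were smaller than before. Of the enzymes, Acot4 stood at -0.61 and -0.58, Amacr at -0.51 and -0.40, Ech1 at -0.26 in both, and Acot8 at -0.33 and -0.22.

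**Figure D4:**
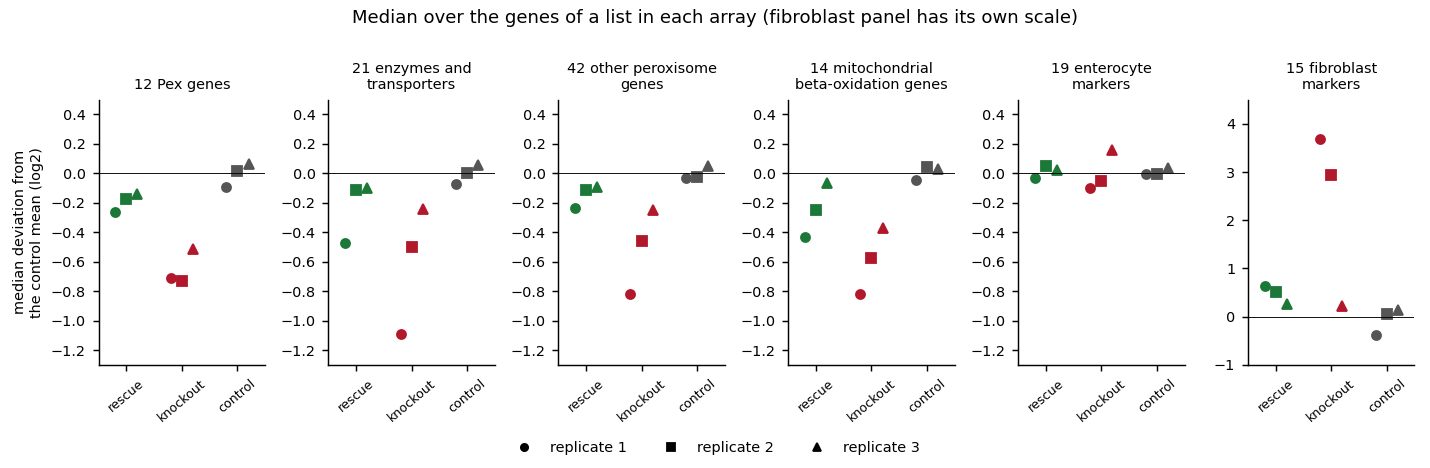
Median over the genes of a list of the deviation from the control mean (y axis, log2), 1 point per array, for rescue, knockout and control. The Pex points of the 3 knockout arrays lie between -0.73 and -0.52, the enzyme points between -1.09 and -0.24. Fibroblast markers, drawn on a scale of their own, separate knockout replicates 1 and 2 (3.68 and 2.93) from replicate 3 (0.22).

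Rescue was set against knockout to ask which transcripts differ once the R654A receptor is added to cells without the normal one. Most Pex genes lay higher in rescue than in knockout cells, and few passed. Of the 12 Pex genes 2 rose, Pex2 (0.46 ± 0.09, limma adjusted p = 0.044) and Pex26 (0.58 ± 0.12, limma adjusted p = 0.043), and of the 21 enzymes 2 rose, Cat and Pecr, and 0 members fell, where 1.23% of all genes were called higher and 1.08% lower. Which Pex genes passed depended on the probe set. A second Pex2 probe set gave -0.06. The dimmer Pex3 probe set gave 0.79 and passed when all probe sets were tested (limma adjusted p = 0.030), while the brighter one gave 0.48 and did not pass. Every rescue array lay above every knockout array for 9 Pex genes and 5 enzymes, against 10.6% of all genes, and 9 and 5 of them had an unadjusted p under 0.05. The median change was 0.49 for Pex genes and 0.34 for enzymes, against 0.04 for all genes. Pecr averaged 9.38 ± 0.11 in rescue cells and 7.92 ± 0.33 in knockout cells (SD, n = 3 each), a rise of 1.45 ± 0.17 (2.73-fold, limma adjusted p = 0.0070). Cat averaged 11.87 ± 0.12 in rescue and 10.94 ± 0.38 in knockout cells, a rise of 0.93 ± 0.18 (1.91-fold, limma adjusted p = 0.040).

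Acot3 had a larger difference than Pecr, 1.73, but with its spread did not pass (interval 0.65 to 2.81, limma adjusted p = 0.11). Pex6 and Pex11a did not differ past the threshold in any comparison, with intervals of -0.44 to 0.43 and -0.38 to 0.42 between rescue and knockout. Of the 4 genes called, only Pecr was called in all 9 fits that left out 1 array. Pex2, Pex26 and Cat were called in 1 of the 9, the one without knockout replicate 3. In that fit 7 Pex genes and 7 enzymes were called higher in rescue, as were 1203 of all 18193 genes. When replicate 3 alone stood for the knockout, the median change was 0.32 over the Pex genes and -0.07 over the enzymes. Acox2 and Phyh were then lower and Pecr higher in rescue. Outside the 33, 4 of the 42 other peroxisome genes were higher in rescue than in knockout cells: Pipox (1.29 ± 0.12, limma adjusted p = 0.0024), Dao (0.75 ± 0.12, 0.022), Hao2 (1.37 ± 0.26, 0.036) and Nudt7, a CoA hydrolase (1.21 ± 0.24, 0.043). Of these, only Pipox was called in all 9 fits without 1 array. Mitochondrial beta-oxidation had 0 of 14 called in limma, with 7 at an unadjusted p under 0.05, and Vnn1 was lower by 2.04 in rescue (-2.04 ± 0.32, limma adjusted p = 0.021).

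Rescue was set against control to ask what remains different from normal cells with the R654A receptor. Of the 33 genes 0 passed in limma, where 0.0715% of all genes were called lower and 0.055% higher. An unadjusted p under 0.05 was found for 4 Pex genes, Pex5, Pex10, Pex13 and Pex14, and 3 enzymes, Pecr, Acot3 and Amacr. All rescue arrays lay below all control arrays for 3 Pex genes and 5 enzymes, against 9.9% of all genes, and the median change was -0.23 in both sets, against -0.01. Pecr averaged 9.38 ± 0.11 in rescue cells and 10.32 ± 0.16 in control cells, a difference of -0.94 ± 0.17 with a limma adjusted p of 0.11. It passed under 4 of 18 alternatives, with adjusted p from 0.025 to 0.53. A dimmer Pecr probe set gave -0.82 and passed when all probe sets were tested (limma adjusted p = 0.012). Acot3 differed by -1.23 (interval -2.31 to -0.15) and Pex10 by -0.46 (-0.86 to -0.07). For Pex2, Pex26, Pex16 and Cat the differences were 0.00, -0.07, -0.06 and -0.13, and their intervals lay within -0.54 to 0.28. The mean of rescue lay between those of knockout and control for 10 of 12 Pex genes, 16 of 21 enzymes and 56.59% of all genes. These comparisons share arrays, so that position is a description. Of the 42 other peroxisome genes 1 was called, Dao, at 7.66, 7.72 and 7.83 in rescue and 8.57 to 8.71 in control arrays (-0.93 ± 0.12, limma adjusted p = 0.044), a call lost in 10 of 17 alternatives.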

How the data were processed

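The authors deposited log2 values for each probe set and array, with 45101 probe sets, 9 arrays and 0 missing values. RMA and Partek 6.5 are named in the submitters' processing notes, without their settings. Column medians lay between 5.93 and 6.00, and no scaling or filter was added. Precision is limited by the number of arrays, with a median standard error of 0.147 for a change (log2).

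In the 2016 platform annotation 34958 probe sets carried 1 symbol, 932 several and 9211 none. Each of 18193 genes was represented by its brightest single-symbol probe set, array controls left out. A single fit with 3 group means took in all 9 arrays (lmFit and eBayes, limma 3.58.1 in R 4.3.3, version 1.17.8 of data.table), with two-sided p-values adjusted over all genes by Benjamini and Hochberg. The threshold was 0.05. Intervals are 95% intervals from the same fit. Where the lower mean was among the dimmest 40% of a group, the fold is a lower bound. The test was checked on simulated data with independent noise of equal spread in the 3 groups. The real arrays differ from that, with a median SD over all genes of 0.14 in rescue, 0.23 in knockout and 0.10 in control.

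The members, the gene lists and the marker lists were chosen with earlier results of these data known. Named were all members past the threshold, members picked for their role, and from each context list up to 4 genes with the smallest p among those past it, with Ppara. Alternatives covered the probe set rule, normalization, the variance model, the samples fitted, the replicate number as a block, each array left out, knockout replicate 3 alone and a fibroblast covariate. A check of targeting signals in proteins was planned and not run. All 36 pairs of arrays held different values.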

Additional observations from a re-analysis of the deposited data

How the results depend on the processing

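Over 18 alternatives no change of the 33 genes that was called reversed its direction. Pex5, Pex7, Pex10, Pex14, Pecr, Cat and, in the 17 settings that hold it, Acot3 were called lower in knockout than in control in every one. Leaving out 1 array gave 5 to 10 Pex genes, 3 to 13 enzymes and 936 to 4998 of all genes between knockout and control. It gave 0 to 7, 1 to 7 and 105 to 2793 between rescue and knockout, and 0 Pex genes, 0 to 1 enzymes and 2 to 136 of all genes between rescue and control. The highest counts came without knockout replicate 3. Without control replicate 3, 5 Pex genes were called between knockout and control. Pex13 was lost in 1 of these 9 fits, Pex2 and Pex3 in 2 each and Pex16 in 5. Acot4 was lost in 4, Amacr and Acot8 in 7 each and Ech1 in 8. Between knockout and control, using only the arrays of those 2 groups gave 1655 genes and 3 enzymes. The fibroblast covariate gave 2001 genes, 4 enzymes and 5 Pex genes. Between rescue and knockout, 0 Pex genes were called with quantile normalization, with trend and robust fitting, with the 2 groups only, with the replicate block, with knockout replicate 3 alone and with the fibroblast covariate. There the 2 groups alone gave 30 genes and 0 enzymes, the mean of probe sets 1 enzyme, knockout replicate 3 alone 1096 genes and the covariate 953. Between rescue and control, all genes numbered 15 with quantile normalization, 14 with trend and robust fitting, 149 with the 2 groups only, 149 with knockout replicate 3 alone and 110 with the covariate. The enzyme Pecr was called there with the mean of probe sets, the 2 groups only and knockout replicate 3 alone, 1 enzyme each. Over all comparisons and alternatives, single changes of the 33 genes kept their side of the threshold 1630 times, lost a call 106 times and gained one 37 times. The cause of these shifts was not tested.

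With the replicate number as a block 11 enzymes were called between knockout and control, 257 genes between rescue and knockout and 12 between rescue and control. Over all genes, samples of the same number did not consistently deviate together (r from -0.22 to 0.40), and 2 of 9 such pairs were the best match of their array. The median enzyme, set against the control mean, nonetheless rose from replicate 1 to 3 in every genotype. It lay at -0.47, -0.11 and -0.10 in rescue, -1.09, -0.50 and -0.24 in knockout and -0.07, -7.0e-04 and 0.05 in control. The median Pex gene rose in that order in rescue and control but not in knockout. Whether the numbers pair the arrays is therefore left undecided. Of the context genes, Dao lost its call between rescue and control in 10 alternatives.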
